A study of Mus musculus with 3 samples.

Results

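Transcripts of the NF-κB family were examined in LT-HSCs, the long-term stem cells of the bone marrow, which renew themselves and give rise to all blood lineages. The 10 genes were chosen by name. They encode the 5 DNA-binding subunits (Rela, Rel, Relb, Nfkb1 and Nfkb2), 4 proteins of the IκB family (Nfkbia, Nfkbib, Nfkbie and Nfkbiz) and the ubiquitin-editing enzyme A20 (Tnfaip3). All probes carrying these names were taken, which gave 20 of the 56600 probes and 10 of the 37323 genes on the array.

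NF-κB subunits act as dimers that IκB proteins hold in the cytoplasm until IκB kinase (IKK) marks the IκB for degradation and the dimer moves to the nucleus. The canonical arm runs through RelA or c-Rel with p50, and the noncanonical arm through RelB with p52. NF-κB switches on its own inhibitors, among them IκBα and A20, which closes a negative feedback loop. In blood stem cells the pathway relays TNF and interleukin-1 signals and is known for its part in inflammation and ageing. Much of its control lies in protein degradation and movement into the nucleus, which a transcript measurement does not see.

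RNA of the sorted cells carried the Cy3 dye, and 1 Agilent array was run for each genotype. There are no replicates, so no test between groups was possible. The WT array came from control mice, the AtmsKO array from mice that had lost Atm (the kinase that signals DNA double-strand breaks) after birth, and the Atmp38dKO array from mice in which both Atm and p38α (gene Mapk14) were floxed. Per the labels all mice were C57BL/6J, 11 weeks old, and the cells were CD150+CD48-Flt3-CD34- LSK cells of the bone marrow. The series text puts tamoxifen at about 5 weeks of age and analysis 4 weeks later, which is a younger age than the labels give. Tamoxifen was given to all groups, and deletion was driven by CAG-CreERT2, a Cre under a promoter active in nearly all tissues. Deletion was therefore not limited to stem cells. Control mice had no Cre, so the presence of Cre and the loss of a gene cannot be told apart against WT. The study used mice of both sexes, and the number behind each array is not stated.

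The targeted genes were read first as a check of the labels. Signals throughout are the scanner's processed intensities scaled to the WT array's 75th percentile. The factors were 1.06 for AtmsKO and 0.862 for Atmp38dKO. Both Atm probes were lower on the AtmsKO array, at 25.2 against 87.0 on WT and at 17.2 against 88.8. On the array labelled Atmp38dKO they read 74.6 and 42.2. The Mapk14 probes read 295, 275 and 298, and 469, 589 and 531, on WT, AtmsKO and Atmp38dKO, so the loss of p38α was not visible there. Whether these probes lie in the deleted exons was not tested. All 14 LT-HSC markers, such as Procr, Mecom and Hlf, were well above background on every array. Of the genes the sort should exclude, Cd34 was bright (1694 on WT), as were Cd4 (484) and the brighter of the Itgam probes (33134). Others were dim on WT, with Flt3 at 79.4, Ly6g at 18.4, Cd48 at 17.2 and Cd8a at 7.57. Il7r was not well above background on any array.

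Among the members, 18 of 20 probes were well above background on all 3 arrays. One Nfkbiz probe was above background on none, and 1 Nfkb1 probe was so on the mutant arrays only. Each member probe was a single spot of 60 bases. On the genome (mm9) 5 of the 20 covered between 140 and 682 bases, so they were taken to cross an intron and read spliced RNA. Their sequences are shown because they read the joined exons of Rela, Nfkb2, Nfkbia and Nfkbib, and each is written 5′ to 3′ along the transcript with its first and last genomic position.

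Rela, chr19:5645363-5645529, plus strand: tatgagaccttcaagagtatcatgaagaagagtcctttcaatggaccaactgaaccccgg

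Nfkb2, chr19:46386146-46386285, plus strand: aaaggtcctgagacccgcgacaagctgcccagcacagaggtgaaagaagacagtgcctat

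Nfkbia, chr12:56590945-56591440, minus strand: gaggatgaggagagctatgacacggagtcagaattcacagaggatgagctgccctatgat

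Nfkbib, chr7:29544167-29544848, minus strand: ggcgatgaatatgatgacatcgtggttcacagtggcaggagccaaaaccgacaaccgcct

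Nfkbib, chr7:29546905-29547054, minus strand: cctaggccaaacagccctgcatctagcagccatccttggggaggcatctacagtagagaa

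Where the other probes lie relative to exons and transcript ends was not determined. The letters AATAAA, the poly(A) signal that marks where a transcript is cut, were found on the sense strand in 4 of the 20 member probes and in 9.77% of all probes. They are capitalised in 30 bases of each of the 2 probes that are referred to again beside their values.

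Rela, from the probe at chr19:5648070-5648129, plus strand: tagctctgaactAATAAAtgtcttatcacg

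Nfkb2, from the probe at chr19:46386440-46386499, plus strand: ctcggtgggtcaAATAAAggggaagacccc

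Differences between arrays are log2 differences of the scaled signal, with values not well above background raised to the array's detection limit. With 1 array per genotype the only error available is the scanner's own, which its software sets at no less than 10 percent of each signal. This gives about 0.20 on the log2 scale for a difference between bright spots. Probes printed in several spots varied by a median SD of 0.053 (log2) within an array. Neither figure contains the spread between mice. Fewer cells with a transcript and less transcript per cell cannot be told apart in RNA from pooled cells.

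Rela, the main transactivating subunit of the canonical arm, was the member whose probes lay in the same direction in every comparison. Its spliced probe read 1050 on WT, 843 on AtmsKO and 683 on Atmp38dKO. The probe with the AATAAA letters, 2.65 kb further on, read 570, 499 and 412 in the same order. WT was highest and Atmp38dKO lowest at both probes. Against WT the differences were -0.32 and -0.19 for AtmsKO, and -0.62 and -0.47 for Atmp38dKO. Between the mutants they were -0.30 and -0.27. Only the difference between Atmp38dKO and WT was beyond 2 scanner errors at the brighter probe, where it amounted to 1.54-fold, so neighbours in this order were not separated.

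Rel, which encodes c-Rel, a subunit prominent in lymphoid and myeloid cells, had no such order. Its brighter probe read 651 on WT, 505 on AtmsKO and 624 on Atmp38dKO. These signals put AtmsKO lowest, by 0.37 below WT on the log2 scale, and left Atmp38dKO next to WT (-0.06). A dimmer probe 4.68 kb further along the gene, made from an Ensembl transcript, read 26.2, 47.2 and 43.7. There WT was lowest, by 0.85 against AtmsKO and 0.74 against Atmp38dKO.

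Relb, the noncanonical partner of p52, was read by 3 probes. The brightest, made from an Ensembl transcript, gave 242, 244 and 282 on WT, AtmsKO and Atmp38dKO. These signals differ by no more than about 1 scanner error. The probe nearest the 3′ end, 11.3 kb away, gave 71.5, 33.0 and 36.6, with WT about 2-fold above both mutants (-1.12 and -0.97). The remaining probe, 0.217 kb before that one, gave 14.1, 18.5 and 10.5. Both of these dimmer probes were made from RefSeq mRNA and put Atmp38dKO below WT (-0.97 and -0.42). The probes of Relb thus placed WT at the bottom, at the top and in the middle of the order. The start of each probe of the neighbouring pair is shown, since these probes gave opposite orders for AtmsKO and WT so close together.

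Relb, start of the probe at chr7:20191722-20191781, minus strand: gaagatggggagcactccggttctctttga

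Relb, start of the probe at chr7:20191939-20191998, minus strand: tactgctagccttgtgggcagcaacatgtt

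Nfkb1 encodes p105, the precursor of p50 that also acts as an inhibitor while unprocessed. Its brightest probe read 112 on WT, 101 on AtmsKO and 100.4 on Atmp38dKO, a range of 0.16 on the log2 scale. A second probe read 98.4, 103 and 75.5, with Atmp38dKO lowest (-0.38 against WT). Another probe, designed on an Ensembl transcript and lying 27.2 kb before the most 3′ probe, was not well above background on WT. It read 20.8 on AtmsKO and 33.1 on Atmp38dKO, at least 3.90-fold and at least 6.21-fold higher than the WT background limit. All 3 reading frames of that probe hold a stop codon, and the other Nfkb1 probes showed no such difference.

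Nfkb2 encodes p100, the precursor of p52 and an inhibitor of RelB. The spliced probe read 97.1, 91.1 and 89.1 on WT, AtmsKO and Atmp38dKO and was level within the scanner error. The probe with the AATAAA letters, 0.254 kb further on, read 84.2, 53.1 and 54.5. It put both mutants below WT, by -0.67 and -0.63, and on the same level as each other (0.04).

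**Figure D1:**
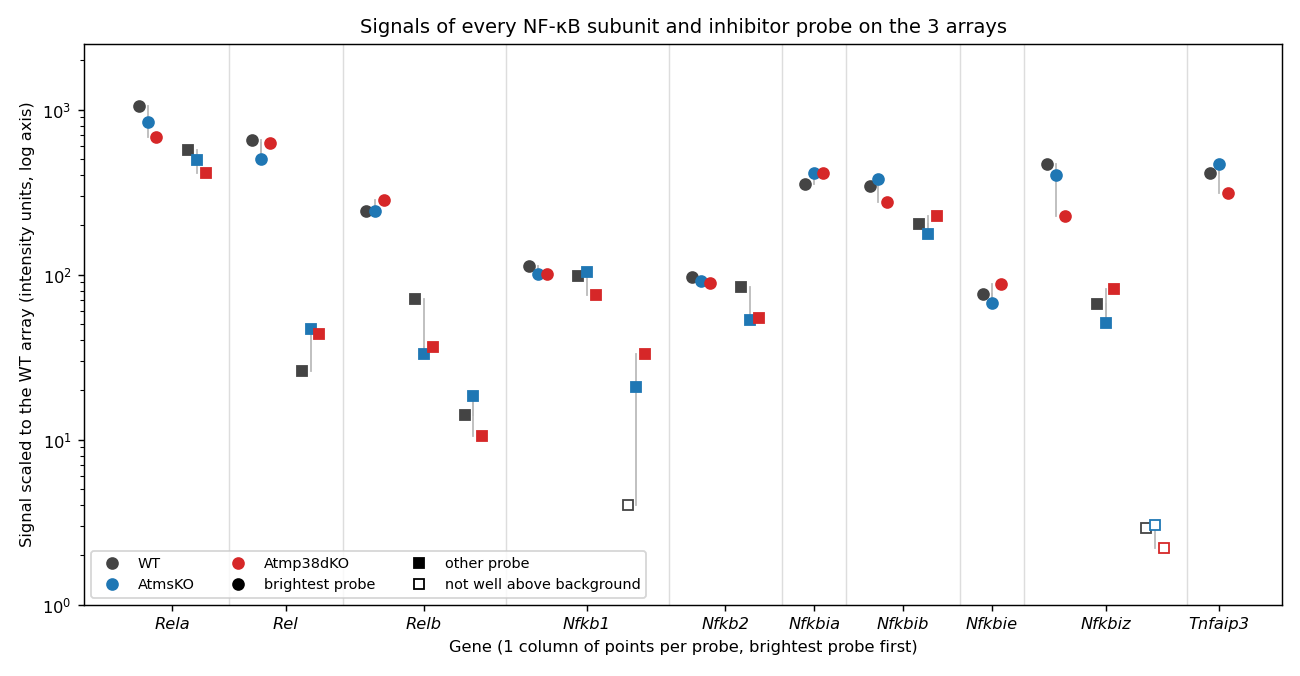
Signal of each of the 20 probes of the 10 NF-κB genes, in intensity units scaled to the WT array on a log axis, with 1 column of points per probe. Circles are the brightest probe of a gene, squares the others, and open symbols values not well above background. Both Rela columns step down from WT through AtmsKO to Atmp38dKO, while the columns of Relb, Nfkb1 and Nfkbiz order the arrays differently.

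Nfkbia encodes IκBα, the inhibitor that NF-κB itself induces fastest. Its spliced probe, the only one on the array, read 356 on WT, 410 on AtmsKO and 413 on Atmp38dKO. The mutants were above WT by 0.20 and 0.21, about 1 scanner error, and differed from each other by 0.01.

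Nfkbib encodes IκBβ, a slower inhibitor. Both of its probes cross an intron, and they ordered the arrays in opposite ways. The brighter one read 343, 380 and 274 on WT, AtmsKO and Atmp38dKO. The other, 2.47 kb before it, read 203, 178 and 227. Atmp38dKO was lowest on the first and highest on the second, and the difference between the mutants was -0.47 and 0.36.

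Nfkbie encodes IκBε, which retains RelA and c-Rel dimers. Its single probe read 76.2, 67.5 and 87.6 on WT, AtmsKO and Atmp38dKO. Atmp38dKO was highest, by 0.20 against WT and 0.38 against AtmsKO, and no pair was beyond 2 scanner errors.

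Nfkbiz encodes IκBζ, a nuclear protein that works with p50 as a coactivator of secondary response genes such as Il6 and Lcn2. Its brightest probe read 469 on WT, 400.4 on AtmsKO and 227 on Atmp38dKO. This was the largest range of any member at its brightest probe, 1.05 on the log2 scale, and Atmp38dKO was 2.07-fold below WT and 1.77-fold below AtmsKO. AtmsKO and WT differed by -0.23. The probe 5.77 kb before it, however, read 66.4, 50.7 and 81.4, with Atmp38dKO at the top (0.29 against WT and 0.68 against AtmsKO). The remaining probe, made from an Ensembl transcript, was not well above background on any array. The bright probe and the opposite one are shown, the first in part.

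Nfkbiz, start of the probe at chr16:55812091-55812150, minus strand: ttgtactgtgtaatcgtccagctagagttt

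Nfkbiz, chr16:55817859-55817918, minus strand: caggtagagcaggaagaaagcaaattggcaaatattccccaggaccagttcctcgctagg

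Tnfaip3 encodes A20, which removes and attaches ubiquitin on signalling proteins upstream of IKK and so ends the signal. Its single probe read 414 on WT, 466 on AtmsKO and 312 on Atmp38dKO. Atmp38dKO was lowest, by -0.41 against WT and -0.58 against AtmsKO. The difference between the mutants was beyond 2 scanner errors, and that against WT fell just short of it. AtmsKO was above WT by 0.17.

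Few members reached a 2-fold difference between arrays. AtmsKO and WT were compared to ask what loss of Atm does to the pathway's transcripts. At the brightest probe 0 of 10 members were at least 2-fold higher and 0 were at least 2-fold lower, against 3.81% higher and 3.98% lower of the 29041 genes read. Their differences ran from -0.37 (Rel) to 0.20 (Nfkbia) with a median of -0.12, beside a median of 0.01 over all genes. At 1.5-fold the members were again 0 and 0, against 9.98% and 10.1%. 0 of 10 members were beyond 2 scanner errors, where 11.9% of the 25755 genes above background on both arrays were higher and 11.4% lower. The median size of the difference, whatever its sign, was 0.17 for the members and 0.25 for all genes. All genes include dim ones, while every member had a mean signal of at least 50. Among genes at that level the quartiles of the difference were -0.17 and 0.20.

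The next comparison set Atmp38dKO against WT. By its label the Atmp38dKO array stands for the joint loss of Atm and p38α, which its Mapk14 probes and the brighter Atm probe did not show. 0 members were at least 2-fold higher, where 3.95% of 30646 genes were, and 1 member, Nfkbiz, was at least 2-fold lower, where 4.41% were. The median difference was -0.14, beside 0.02 over all genes, and 7 of 10 members lay below 0. At 1.5-fold 2 members were lower (Rela and Nfkbiz) and 0 higher, against 10.6% and 10.8% of genes. Beyond 2 scanner errors were the same pair and no other member, where 12.5% of 27251 genes were lower and 13.2% higher. The median size of the difference was 0.22 for the members and 0.26 for all genes. The central 95% of all genes ran from -1.30 to 1.21 and held all 10 members. Among genes with a mean signal of at least 50, a level every member reached, it ran from -0.88 to 0.85, and Nfkbiz lay outside it. The quartiles of those brighter genes were -0.19 and 0.20.

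Atmp38dKO and AtmsKO by their labels differ in p38α alone, yet the Mapk14 probes differed by 0.12 and -0.15 between these arrays and the Atm probes by 1.57 and 1.30. 0 members were at least 2-fold higher and 0 at least 2-fold lower, against 3.7% and 3.62% of 30202 genes. The median was -0.02. The median size of the difference was here larger for the members than for all genes, 0.30 against 0.24. Among genes with a mean signal of at least 50 the quartiles were -0.20 and 0.18. Nfkbiz (-0.82) lay just outside the central 95% of genes with a mean signal of at least 50, which began at -0.81. At 1.5-fold 1 member was lower (Nfkbiz) and 0 higher, against 8.75% and 10% of genes. Beyond 2 scanner errors were 3 members, all lower (Nfkbib, Nfkbiz and Tnfaip3), where 11.6% of 26155 genes were lower and 11.8% higher. The 3 comparisons share arrays, so the same Atmp38dKO signal of Nfkbiz or Tnfaip3 enters both of its comparisons.

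**Figure D2:**
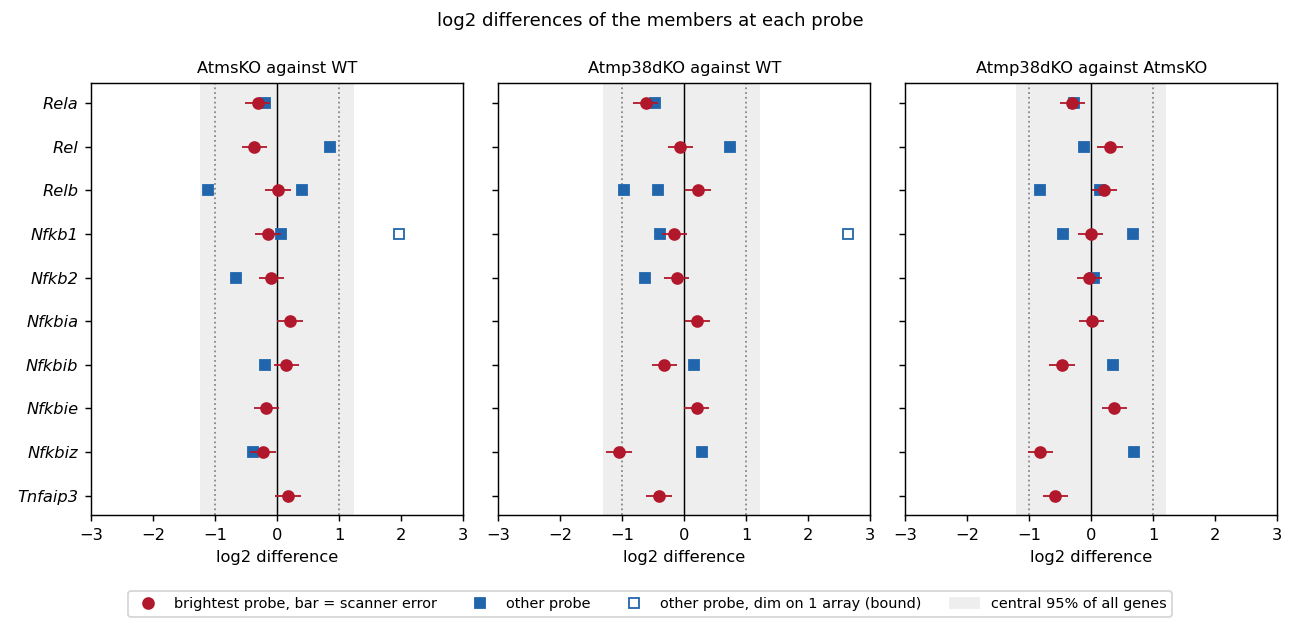
log2 difference of each member in the 3 comparisons. Red circles are the brightest probe with the scanner error as a bar, blue squares the other probes, open squares bounds where 1 array was not above background, dotted lines 2-fold, and the grey band the central 95% of all genes. Only Nfkbiz reaches 2-fold at its brightest probe (-1.05, Atmp38dKO against WT), with its other probe on the opposite side of 0 (0.29).

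The probes of a gene often disagreed. Of the 7 members with 2 or more probes above background on all arrays, the probes had the same sign in 3 for AtmsKO against WT, 3 for Atmp38dKO against WT and 2 for Atmp38dKO against AtmsKO. Rela was the only member with the same sign in all 3. Over the 7560 genes of the array with several such probes, 42.6%, 44.6% and 44.9% had the same sign, so the members were like other genes in this respect. The median spread between probes of a gene was 0.34, 0.50 and 0.44 for the members and 0.50, 0.51 and 0.50 for all those genes. A single probe's difference of that size was therefore no larger than the disagreement between probes of a gene. The probe nearest the 3′ end was lower than the one farthest from it in 3, 4 and 4 of the 7 members, and in 48.2%, 47.7% and nearly 50% of the 7560 genes.

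**Figure D3:**
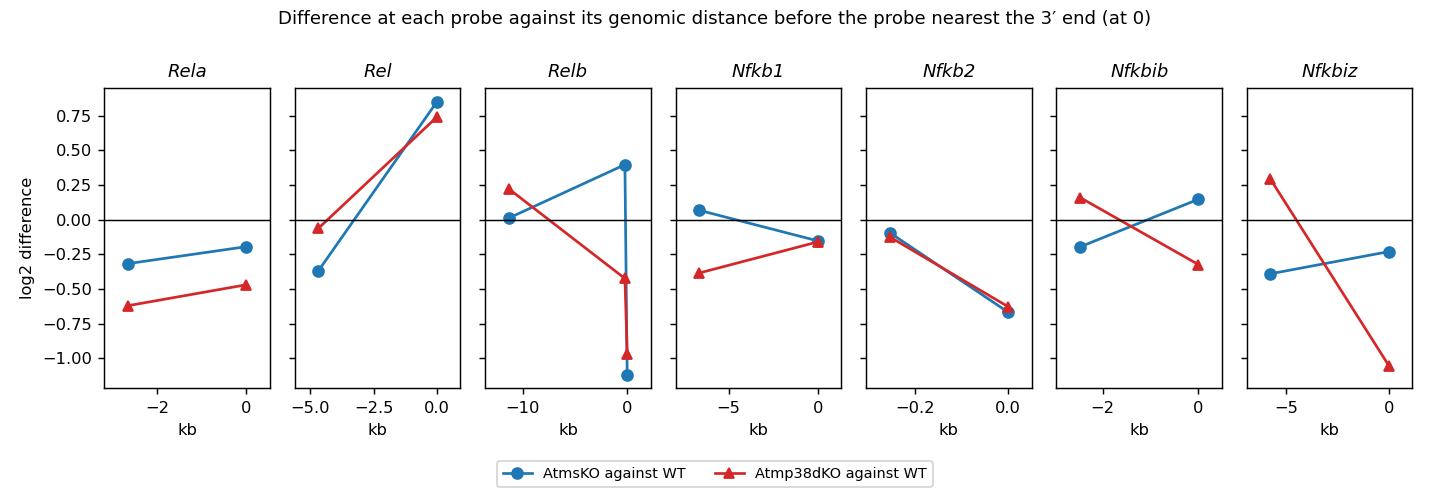
log2 difference against WT (AtmsKO circles, Atmp38dKO triangles) at each probe of the 7 members with several probes above background on all arrays, plotted against the genomic distance in kb before the probe nearest the 3′ end. Rela stays below 0 at both probes in both mutants, while Nfkbiz in Atmp38dKO goes from 0.29 to -1.05 and Rel goes from below 0 to 0.74 and 0.85.

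By pattern over the 3 arrays, the genes most like Nfkbiz at its brightest probe were Ddx20 (390, 334 and 188), Frmd3 (18.9, 15.9 and 9.03) and Scarf2 (55.4, 46.7 and 26.7), by the distance between centred log2 profiles. This likeness rests on 3 values, and 66 of 25576 genes lay as near as 0.1.

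The promoters are shown because feedback through κB sites is the family's best known property. RefSeq promoters (250 bases before to 50 after the start, GRCm38.p6) were listed for 7 of the 10 members. The canonical κB motif was searched on both strands. It was found in 5 of the 7 (Nfkb2, Rel, Nfkbia, Nfkbie and Tnfaip3), and in 5.14% of the 27025 genes with a promoter listed. Overlapping matches on opposite strands were counted once per gene. The matches nearest the start are capitalised in the stretches that follow.

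Nfkb2, chr19:46304678-46304736, plus strand: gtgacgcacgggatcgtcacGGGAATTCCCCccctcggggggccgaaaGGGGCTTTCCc

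Rel, chr11:23771031-23771081, minus strand: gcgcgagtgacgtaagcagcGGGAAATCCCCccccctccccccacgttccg

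Nfkbia, chr12:55492648-55492696, minus strand: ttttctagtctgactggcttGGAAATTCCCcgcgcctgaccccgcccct

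Nfkbie, chr17:45555574-45555623, plus strand: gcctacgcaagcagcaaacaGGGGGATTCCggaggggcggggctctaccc

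Tnfaip3, chr10:19015411-19015442, minus strand: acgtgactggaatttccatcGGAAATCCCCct

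The 5 members with a match did not move one way. Against WT, Atmp38dKO was at -0.12 for Nfkb2, -0.06 for Rel, 0.21 for Nfkbia, 0.20 for Nfkbie and -0.41 for Tnfaip3. Without a match in this window were Rela (-0.62) and Nfkbib (-0.32). All these values are from the brightest probe. At their other probe Nfkb2 was at -0.63, Rel at 0.74, Rela at -0.47 and Nfkbib at 0.16, so members with and without a match were not separated.

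The genes for the kinases that release NF-κB, with some of their adaptors, were read next. The list held 17 genes, for IKK subunits, upstream kinases and the adaptor proteins encoded by Tab1, Tab2 and Tab3. Of these genes, 0 were 2-fold higher or lower in AtmsKO against WT (median -0.04). Over the whole array 3.81% of genes were higher and 3.98% lower. In Atmp38dKO against WT, Irak4, a kinase of the interleukin-1 and Toll-like receptor complex, was higher (57.3 on WT, 100.7 on AtmsKO, 134 on Atmp38dKO; 1.22), and Map3k8 was lower (40.4, 30.2 and 11.1; -1.87). Map3k8 encodes Tpl2, which p105 binds and holds inactive. Its other probe above background on the mutant arrays did not share the direction between them. The list's median was -0.20 in Atmp38dKO against WT, where 3.95% of all genes were at least 2-fold higher and 4.41% lower. Between the mutants 2 of the 17 were at least 2-fold lower and 0 higher, against 3.62% and 3.7% of all genes. The median was -0.14, while the median of the members was -0.02.

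Of 25 receptor and adaptor genes, Traf5, an adaptor of TNF family receptors, was higher on both mutant arrays (53.1, 133 and 117; 1.33 and 1.14 against WT). Its other probe above background lay in the same direction. Traf5 was the only 1 of the 25 at least 2-fold higher in either comparison with WT, where 3.81% and 3.95% of all genes were. At least 2-fold lower were 1 gene in AtmsKO against WT and 0 in Atmp38dKO against WT, where 3.98% and 4.41% of all genes were. Between the mutants 0 were higher or lower. The medians of the list were 0.05, -0.09 and -0.10 in the 3 comparisons.

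Of 19 further regulators, most of them brakes but with the ubiquitin ligase subunits Rnf31, Rbck1 and Sharpin, which promote IKK activation, among them, Bcl3, a nuclear IκB protein that binds p50 and p52, was the only one past 2-fold. It read 43.2 on WT, 97.1 on AtmsKO and 67.9 on Atmp38dKO (1.17 for AtmsKO against WT, where 3.81% of all genes were at least 2-fold higher). The medians were -0.05, 0.02 and -0.11.

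Known NF-κB target genes spread more widely than the members. In AtmsKO against WT 1 of 41 was at least 2-fold higher and 4 were lower (median -0.06). In Atmp38dKO against WT 1 of 44 was higher and 9 were lower (median -0.24), and between the mutants 2 of 43 were higher and 5 lower (median -0.22). Of all genes, 3.81%, 3.95% and 3.7% were higher in these comparisons, and 3.98%, 4.41% and 3.62% lower. Ier3, Gadd45b, Myc and Junb are also among the immediate early genes read below. Without them, 1 of 40 targets was higher and 8 were lower in Atmp38dKO against WT (median -0.17). Ptx3, a secreted pattern recognition protein, read 93.8, 8.50 and 11.8 on WT, AtmsKO and Atmp38dKO, so both mutants were far below WT (11.0-fold and 7.98-fold). Cd83, a surface protein of activated immune cells, read 27.4, 6.79 and 4.62 (-2.02 and -2.57). Icosl, the ligand of the T cell costimulator ICOS, went the other way, at 7.51, 20.2 and 44.4 (1.43 and 2.56). These target signals were dim, and each came from 1 probe above background. Between the mutants, Tnfsf9 (29.0 and 10.3; -1.49) and Irf4 (12.1 and 4.94; -1.29) were lower in Atmp38dKO, and Icosl was higher (1.14). Tnfsf9 and Irf4 were dim as well, with no other probe above background, and Irf4 lay close to the detection limit on Atmp38dKO.

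Immediate early and heat shock genes were read beside the members because several inhibitors are themselves rapidly induced. 14 of the 30 were at least 2-fold lower in Atmp38dKO against WT and 0 were higher (median -0.94), against 4.41% and 3.95% of all genes. In AtmsKO against WT 3 were lower (median -0.19), and between the mutants 7 were lower (median -0.62), against 3.98% and 3.62% of all genes. The list was written with earlier results of these data known, so its counts are not a test. Atf3 read 440 on WT, 282 on AtmsKO and 113 on Atmp38dKO. Jun read 3652, 2891 and 1136, and Zfp36, which encodes a protein that degrades cytokine mRNAs, read 12556, 13554 and 5771. The heat shock genes Hspa1a (11889, 5045 and 2915), Hspa1b (6430, 2839 and 1537) and Hsph1 (7005, 2889 and 2549) were lower on both mutant arrays, and the first pair are near-identical genes whose probes may share RNA. In the same comparison with WT, Nfkbiz was at -1.05 at its brightest probe and at 0.29 at its other probe above background. Tnfaip3 was at -0.41, within 2 scanner errors, and Nfkbia, equally a rapidly induced gene, was at 0.21. Whether the way the cells were handled differed between arrays, and its part in the differences of the members and of this list, was not tested.

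Markers of the sorted cells also differed on the Atmp38dKO array. The summed scaled signal of the 14 LT-HSC markers was 9405 on WT, 9059 on AtmsKO and 8075 on Atmp38dKO. Their median difference was 0.05 for AtmsKO and -0.49 for Atmp38dKO against WT. Of 10 erythroid and megakaryocyte markers, 9, 10 and 10 were above background, with summed signals of 1606, 3070 and 1989, of which Pf4 alone gave 1020, 2497 and 1323. Of 12 granulocyte and macrophage markers 12, 12 and 11 were above background, of 11 lymphoid markers 8, 9 and 9, and of 8 endothelial and stromal markers 7 on each array. Jchain and Cdh5 were above background on none, while the lymphoid markers Pax5 (304) and Ms4a1 (200) were bright on WT. Kdr read 5.88, 120 and 15.6 on WT, AtmsKO and Atmp38dKO, and Vwf 102, 206 and 162. These 2 of 7 endothelial and stromal markers were at least 2-fold higher in AtmsKO against WT and 0 were lower. Of all genes 3.81% were higher and 3.98% lower. Kdr lay near the detection limit on WT, and 1 of 2 other Vwf probes shared the direction. The part of these markers in the members' differences was not tested.

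**Figure D4:**
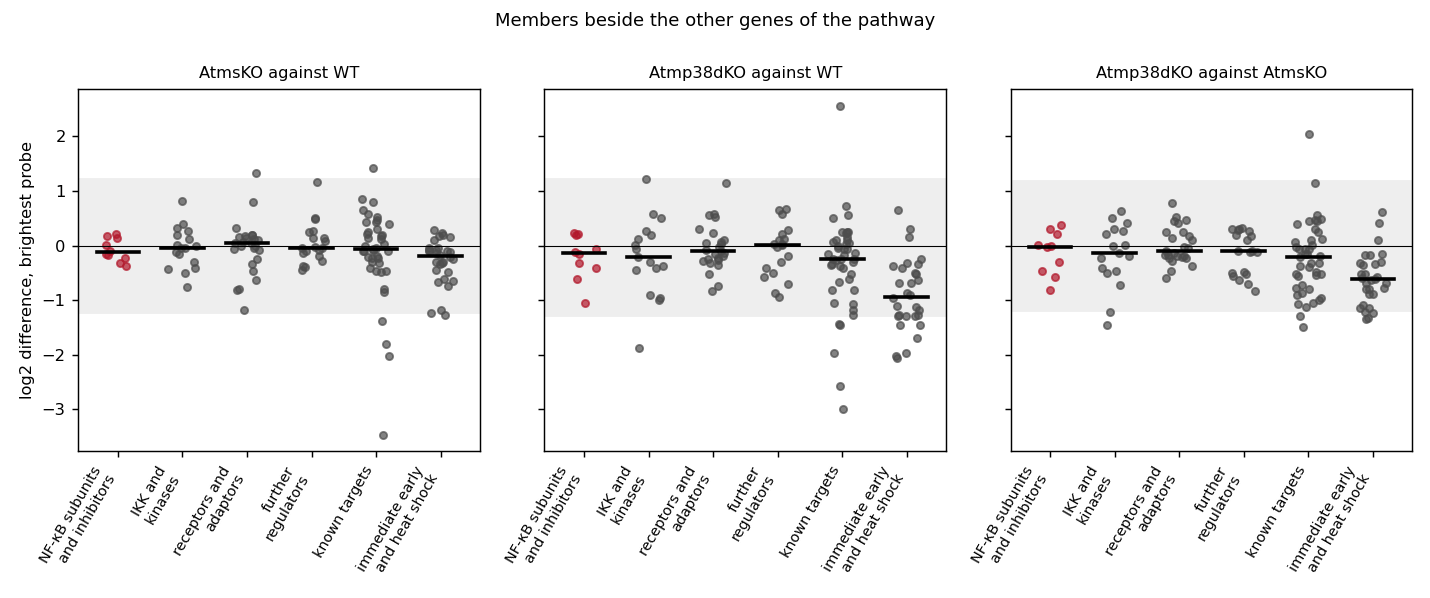
log2 difference of each gene at its brightest probe, for the 10 members (red) and 5 lists of related genes (grey), with the median of each list as a bar and the central 95% of all genes as a band. The medians of the members, kinases, receptors and further regulators lie between -0.20 and 0.05 in every comparison, while the immediate early and heat shock list has medians of -0.94 and -0.62 in the comparisons with Atmp38dKO.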

How the data were processed

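Each genotype gave 1 array, grouped by its title. Per the file headers the authors' contractor made the deposited intensity values with Agilent Feature Extraction 11.5.1.1, background-subtracted within each array and not normalized between arrays, with probe positions on mm9. The deposited log2 table equals log2 of these intensities minus each array's 75th percentile, up to a constant, within 0.02 for about 99.8% of probes or more on each array.

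Here control and outlier spots (57, 75 and 83 on WT, AtmsKO and Atmp38dKO) were left out, spots of a probe were averaged, and log2 intensity minus the array's 75th percentile was used. Values not well above background were raised, where they lay below it, to the lowest signal detected well above background on that array. This limit was 5.33, 6.12 and 4.97 intensity units before scaling on WT, AtmsKO and Atmp38dKO. Percentile scaling shows relative levels and hides a change in total RNA per cell. A gene was read at its brightest probe and every other probe was given too. Between 68.9% and 77.7% of probes were well above background, and no spot was saturated. The number of arrays limits the precision.

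The members, lists and rules were chosen with earlier results of these data known. The limit of 2 scanner errors and the count of probes that agree over all genes were chosen after seeing the data. Named genes were all members, Atm, Mapk14, per list and comparison up to 3 genes at least 2-fold different and above background on both arrays with the largest difference, and the 3 genes most like the member of largest range. Marker genes were named after their values were seen. Gene names came from RefSeq accessions for 32991 of 56600 probes, and all 20 member probes kept their symbol. Alternatives were another scaling, quantile normalization, limma (3.58.1) normexp background with an offset of 50, no floor, stricter detection, the authors' values, the mean of all probes and other fold thresholds. Functions were tested on simulated data. Python 3.11.15, numpy 2.4.6, pandas 2.3.3 and matplotlib 3.10.9 were used. A planned search for the IKK phosphorylation motif in the proteins was not run, since protein sequences were not used here. For 1 receptor or adaptor gene the values are not reported here.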

Additional observations from a re-analysis of the deposited data

How the results depend on the processing

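No paired analysis was possible because there was a single array per genotype, and leaving one out would leave no comparison. Of 75 alternative values of the medians and counts over members, 69 stayed in place. Every member was well above background on all arrays at its brightest probe. Leaving out the floor or asking for stricter detection therefore could not change these values, nor those of single members. The authors' values use the same scaling and could differ by little more than rounding. The settings able to move a value were thus fewer than these counts and those for single members show. The median for Atmp38dKO against WT moved from -0.14 to -0.23 with the mean of all probes. The 1 member at least 2-fold lower there, Nfkbiz, was no longer past 2-fold with the normexp background or the mean of all probes (0 members each), 2 members were past 1.5-fold and 0 past 8-fold, and between the mutants 1 member was lower at 1.5-fold. Single members kept their value under 181 of 210 other settings, and the sign turned in 12. Taking each other probe in place of the brightest, which was added after seeing the data, turned the sign in 17 of 27 cases, and for Nfkbiz in Atmp38dKO against WT it gave 0.29 in place of -1.05. Medians of the kinase, receptor, regulator and target lists stayed in place in 32 of 36 cases. The immediate early and heat shock list was not put through these alternatives. No scaling moved the median of all genes by more than 0.1. With normexp, whose offset shrinks differences of dim probes, 103 genes were at least 2-fold higher and 96 lower in AtmsKO against WT, in place of 1107 and 1157, and 84 and 136 in place of 1211 and 1350 in Atmp38dKO against WT. Without the floor they were 2195 and 2956, and 2882 and 2535.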
